A study of Mus musculus with 12 samples.

Results

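Chemokine receptors are the cell-surface proteins that steer T cells through the body, and the RNA of 9 of them (Ccr2, Ccr4, Ccr6, Ccr7, Ccr9, Cxcr3, Cxcr4, Cxcr5 and Cxcr6) was followed across sorted mouse CD4 T cells. The genes were taken by name from a count table of 54532 entries, and each name matched 1 entry. All 9 passed the filter on low counts that left 13393 genes for testing. The Naive group held next to no counts of Ccr2, Ccr4, Ccr6, Cxcr3 and Cxcr6, so these genes passed through the other groups. They were bound to differ between Naive cells and any group where they are high. Cxcr6 was nearly absent from Treg as well.

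The RNA came from 12 libraries, 3 for each of 4 cell groups sorted from mixed spleen and lymph node of untreated, polyclonal wildtype C57BL/6 mice that carry a Foxp3-GFP reporter. Naive cells were CD44low. Teff, the effector group, were CD44high and FOXP3-negative with low CD73 and FR4. Anergic cells, a state of antigen-experienced cells that no longer respond fully to antigen, were CD44high and FOXP3-negative with high CD73 and FR4 and with NRP1 on the surface. Treg, regulatory T cells, were sorted on FOXP3 and CD25. The labels give no age, no sex and no number of mice behind a library. They do not say whether libraries of a group came from separate mice, and the p-values then reflect the spread between libraries, which may be technical.

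Chemokine receptors are G protein-coupled receptors that sense gradients of small secreted proteins, the chemokines, and turn on Gαi proteins that drive migration. CCR7 brings naive T cells into lymph nodes and their T cell zones, and CXCR5 leads cells to B cell follicles. CXCR3, CXCR6 and CCR2 guide cells to inflamed or peripheral tissue, CCR4 and CCR6 to skin and mucosal sites, CCR9 to the small intestine, and CXCR4 binds the stromal chemokine CXCL12.

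Libraries held 6909035 to 9527897 counts. Levels are given as CPM, a gene's count relative to the library total adjusted by the TMM method. A gene is called higher or lower where the adjusted p of edgeR's quasi-likelihood test was under 0.05. T cell genes were high throughout, with Cd3e at 434 ± 13.6 to 603 ± 23.3 CPM and Cd4 at 466.5 ± 21.7 to 1222 ± 69.3 CPM by group (SD, n = 3). Foxp3 stood at 543 ± 16.3 CPM in Treg, 18.2 ± 2.82 in Anergic, 1.36 ± 0.222 in Naive and 0.735 ± 0.331 in Teff libraries (SD, n = 3). Between 31.05 and 42.2% of a library's counts fell on the 9 entries with the highest mean share over the 12 libraries. Anergic library 3 had the highest share and the lowest TMM factor, 0.871. Scaling by total counts in place of TMM moved the median log2 fold change of all genes by -0.131 for Anergic against Treg. It also moved the split of calls over all genes from 1864 higher and 1702 lower to 1218 and 2276 for Anergic against Teff, from 2096 and 2054 to 1324 and 3027 for Anergic against Treg, and from 2538 and 1858 to 2925 and 1126 for Treg against Naive. No direction of a called receptor changed under either other scaling.

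The receptors divided the 4 groups in different ways. In Anergic against Teff cells 3 of the 9 were higher and 5 lower, where 26.6% of all tested genes were called, 13.9% higher and 12.7% lower. In Anergic against Treg 4 were higher and 4 lower, where 31% of all tested genes were called, 15.6% higher and 15.3% lower. In Anergic against Naive 8 were higher and 1 lower, where 46.2% of all tested genes were called, 25% higher and 21.3% lower. Teff cells had 7 higher and 2 lower than Naive, with 34.9% of all tested genes called, 19.2% higher and 15.7% lower. Treg had 6 higher and 1 lower than Naive, with 32.8% of all tested genes called, 19% higher and 13.9% lower. In Treg against Teff 3 were higher and 5 lower, where 29.1% of all tested genes were called, 15% higher and 14.1% lower. The median log2 fold change of the 9 was -0.51 for Anergic against Teff, -0.45 for Anergic against Treg and -0.32 for Treg against Teff, beside medians of all tested genes of 0.00095, 0.00008 and 0.00795. Against Naive cells the median was 5.13 in Anergic, 5.84 in Teff and 3.52 in Treg, or 5.57 in Teff with Ccr6 set at its lower bound, beside medians of all tested genes of 0.00598, 0.0055 and 0.00267. Of the 9, Ccr2, Ccr4, Ccr6, Cxcr3 and Cxcr6 passed the filter only through the other groups. The counts and medians against Naive were thus partly fixed in advance and are not read as a result about the receptors. Cxcr6, with 21 counts over the 3 Treg libraries, was likewise bound to differ between Treg and Anergic or Teff cells. Its calls in those comparisons are part of the counts above and are not read as a result either. Comparisons share libraries, so their counts are not independent of each other. In these bulk libraries fewer cells with a receptor and less of its RNA per cell cannot be told apart.

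**Figure D1:**
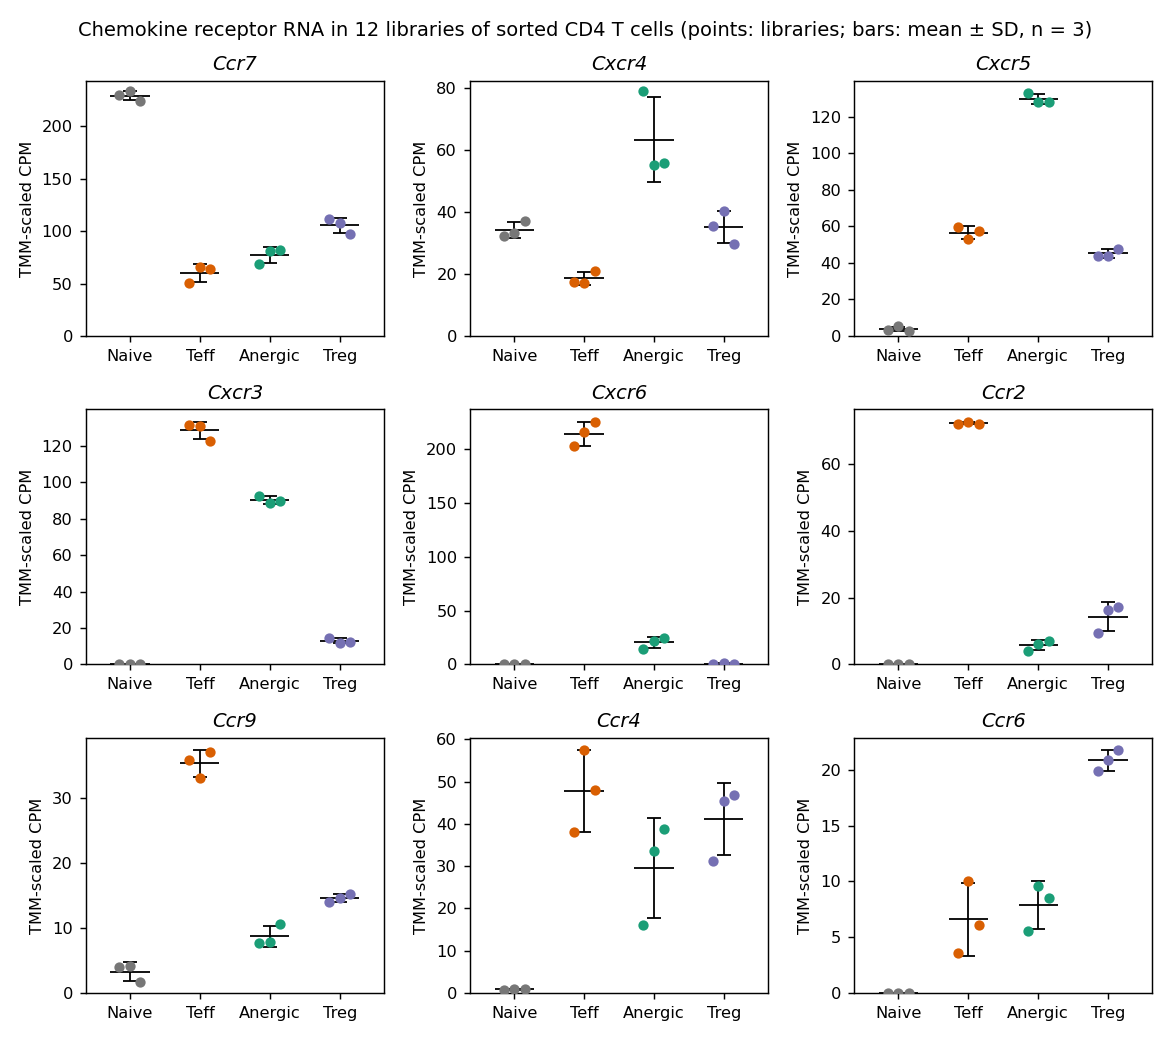
TMM-scaled CPM (y axis, from 0) of each receptor in each library, by cell group (x axis), with points for libraries and bars for mean ± SD, n = 3. Ccr7 is highest in the 3 Naive libraries, Cxcr4 and Cxcr5 in Anergic, Cxcr3, Cxcr6, Ccr2 and Ccr9 in Teff and Ccr6 in Treg, and Ccr4 overlaps among Teff, Anergic and Treg.

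Ccr7 was highest in Naive cells. It reached 230.1, 233 and 224 CPM in the 3 Naive libraries, 111, 107 and 97.6 in Treg, 68.5, 81.4 and 81.5 in Anergic and 50.3, 65.7 and 63.5 in Teff. No groups overlapped, and each step of the order Naive, Treg, Anergic, Teff passed the test. Anergic cells were 2.97-fold below Naive (log2 difference -1.57 ± 0.0848 SE, adjusted p = 1.63e-13) and 1.37-fold below Treg (log2 difference -0.45 ± 0.0862 SE, adjusted p = 0.000211). They were 1.29-fold above Teff (log2 difference 0.37 ± 0.0901 SE, adjusted p = 0.0033), the narrowest of the steps. Treg were 2.17-fold below Naive and 1.76-fold above Teff, and Teff 3.84-fold below Naive.

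Cxcr5 was highest in Anergic cells. It stood at 133, 128 and 128 CPM in the Anergic libraries, against 59.5, 52.8 and 57.2 in Teff, 44.0, 43.7 and 47.9 in Treg and 3.31, 5.33 and 2.88 in Naive. The 4 groups were separate in every library. Anergic cells exceeded Teff 2.29-fold (log2 difference 1.20 ± 0.0798 SE, adjusted p = 2.45e-11), Treg 2.87-fold (log2 difference 1.52 ± 0.0811 SE, adjusted p = 3.44e-13) and Naive 33-fold (log2 difference 5.04 ± 0.121 SE, adjusted p = 5.34e-20). Treg and Teff, neighbours in the order, differed by 1.25-fold (log2 difference -0.32 ± 0.0854 SE, adjusted p = 0.00513). The opposite-strand gene Bcl9l covers 3.30% of the exon length of Cxcr5, and the strand setting of the counting is unknown. B cells also express Cxcr5. The 10 B cell genes listed summed to 223 to 287 CPM in Anergic, 181 to 197 in Teff, 414 to 506 in Treg and 198 to 228 in Naive libraries, mostly from Ighm. Of the 5 of them that were tested, 4 were higher in Anergic than Teff and 0 lower, where 26.6% of all tested genes were called. Cd22, a B cell lectin gene, was at 27.9 ± 1.5 CPM in Anergic, 12.6 ± 3.00 in Teff, 2.87 ± 0.777 in Treg and 0.101 ± 0.175 in Naive (SD, n = 3), the same order as Cxcr5. The defining B cell gene Ms4a1, which encodes CD20, reached 0.486 ± 0.419 CPM in Anergic cells against 0.289 ± 0.199 in Teff (SD, n = 3). The part of B cells in the Cxcr5 level was not tested.

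Cxcr4 was also highest in Anergic cells. Its levels were 79.0, 55.1 and 55.8 CPM in Anergic, 35.6, 40.2 and 29.8 in Treg, 32.1, 33.2 and 37.2 in Naive and 17.4, 17.2 and 21.04 in Teff libraries. Anergic library 1 stood above the other two, and all 3 lay above every library of the other groups. Anergic cells exceeded Teff 3.42-fold (log2 difference 1.77 ± 0.134 SE, adjusted p = 2.29e-10), Treg 1.81-fold (log2 difference 0.85 ± 0.123 SE, adjusted p = 6.65e-06) and Naive 1.86-fold (log2 difference 0.89 ± 0.126 SE, adjusted p = 2.56e-06). Treg and Naive cells overlapped and did not pass (log2 difference 0.04 ± 0.132 SE, 95% interval -0.23 to 0.31, adjusted p = 0.849). Teff cells were the lowest, 1.84-fold under Naive (adjusted p = 2.88e-05) and 1.90-fold under Treg (adjusted p = 1.34e-05).

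Cxcr6, the receptor for the membrane-bound chemokine CXCL16 and a feature of tissue-resident cells, led in Teff cells. It reached 203, 216 and 225 CPM in Teff libraries, 14.7, 22.2 and 24.9 in Anergic, 0.505, 1.39 and 0.588 in Treg and 0.414, 0.496 and 0.304 in Naive. Teff cells exceeded Anergic 10.5-fold (log2 difference -3.39 ± 0.114 SE for Anergic against Teff, adjusted p = 2.55e-16), Treg 263-fold (log2 difference -8.04 ± 0.187 SE for Treg against Teff, adjusted p = 7.2e-20) and Naive 503.5-fold (log2 difference 8.98 ± 0.214 SE, adjusted p = 6.35e-20). Anergic cells were 25.2-fold above Treg (log2 difference 4.65 ± 0.256 SE, adjusted p = 6.52e-13). Treg and Naive cells held 21 and 9 counts over 3 libraries each and did not pass (log2 difference 0.94 ± 0.645 SE, 95% interval -0.40 to 2.27, adjusted p = 0.297). Cxcr6 passed the filter only through Teff and Anergic cells. A difference of these from Treg and Naive was thus fixed in advance, and the size of those folds rests on few counts. All Anergic libraries lay below every Teff library and above every Treg and Naive library.

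Cxcr3, the receptor for the interferon-induced chemokines CXCL9 and CXCL10, was high in both CD44high groups. It stood at 131, 131 and 123 CPM in Teff, 92.6, 88.4 and 89.7 in Anergic, 14.8, 11.9 and 12.5 in Treg and 0, 0.372 and 0 in Naive libraries. The groups did not overlap. Anergic cells were 1.42-fold below Teff (log2 difference -0.51 ± 0.0787 SE, adjusted p = 1.97e-05) and 6.87-fold above Treg (log2 difference 2.78 ± 0.0998 SE, adjusted p = 2.91e-16). Naive cells held 3 counts of Cxcr3, all in library 2. The ratio to Naive was 659 in Anergic (95% counting interval 225 to 3199), 938.6 in Teff (321 to 4554) and 96.1 in Treg (32.6 to 468). Without Naive library 2 the count there was 0, and Anergic, Teff and Treg cells were at least 416-fold, 593-fold and 60.7-fold higher than a floor of 3 counts over the other two.

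Ccr2, best known for bringing monocytes and effector cells to inflamed tissue, was mostly a Teff transcript. The Teff libraries held 72.1, 72.8 and 72.0 CPM, Treg 9.40, 16.3 and 17.2, Anergic 4.12, 6.11 and 7.05 and Naive 0.276, 0.124 and 0. Treg lay between Teff and Anergic without overlap. Anergic cells were 12.6-fold below Teff (log2 difference -3.66 ± 0.176 SE, adjusted p = 5.84e-14) and 2.47-fold below Treg (log2 difference -1.30 ± 0.205 SE, adjusted p = 1.98e-05), and Treg 5.11-fold below Teff (log2 difference -2.35 ± 0.152 SE, adjusted p = 1.02e-11). Naive cells held 3 counts of Ccr2, so the ratio to Naive was 41.7 in Anergic (95% counting interval 14 to 205), 528 in Teff (180 to 2563) and 102 in Treg (34.7 to 498). Without Naive library 1, which held 2 of these counts, the ratios were 83.7, 1060 and 205.

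Genes of NK and innate-like T cells, taken as a sum, were also highest in Teff cells, as Cxcr6, Cxcr3 and Ccr2 were. The 10 listed genes summed to 186 to 247 CPM in Teff, 46.6 to 57.6 in Anergic, 12.7 to 13.8 in Naive and 8.59 to 11.8 in Treg libraries. In Anergic against Teff 1 of the 6 tested was higher and 4 lower, where 26.6% of all tested genes were called. Zbtb16, which encodes the innate-like T cell factor PLZF, was at 99.9 ± 20.3 CPM in Teff and 23.1 ± 5.17 in Anergic (SD, n = 3). The NK cell receptor genes Klrk1, Klrb1c and Klrd1 were at 41.1 ± 6.77, 38.9 ± 11.6 and 9.02 ± 1.53 CPM in Teff and at 0.441 ± 0.163, 4.75 ± 0.509 and 0.423 ± 0.401 in Anergic (SD, n = 3), all 3 called lower in Anergic (adjusted p = 6.86e-15, 1.3e-10 and 3.05e-08). Ncr1, another NK cell gene, held 2 counts in all libraries, with 0 in Anergic and Treg. No other gene of the 10 was at 0 in either group. The part of such cells in the receptor levels was not tested. Myeloid and dendritic cell genes, which could accompany Ccr2, summed to 11.2 to 12.6 CPM in Teff, 6.92 to 11.9 in Anergic, 6.7 to 8.79 in Treg and 4.14 to 5.62 in Naive libraries over 12 genes. Of the 4 tested, 1 was higher and 1 lower in Anergic than Teff, beside the same 26.6% of all tested genes. The higher one, Zbtb46, was at 2.03 ± 0.391 CPM in Anergic, 0.744 ± 0.573 in Teff and 2.28 ± 0.506 in Treg (SD, n = 3). The lower one, Itgam, was highest in Naive at 2.36 ± 0.594 CPM, against 0.736 ± 0.455 in Teff and 0.0783 ± 0.136 in Anergic (SD, n = 3). Lyz2, the lysozyme gene of myeloid cells, was highest in Teff like Ccr2, with 5.65 ± 0.464 CPM there, 3.38 ± 0.0463 in Anergic, 2.74 ± 1.48 in Treg and 0.707 ± 0.359 in Naive (SD, n = 3). Csf1r, a macrophage receptor gene, was at 2.74 ± 0.336 CPM in Teff, 2.83 ± 1.41 in Anergic, 1.08 ± 0.653 in Treg and 0.556 ± 0.180 in Naive (SD, n = 3). Both were called higher in Teff than in Naive and lower in Treg than in Teff, and neither was called between Anergic and Teff (adjusted p = 0.0768 for Lyz2 and 0.927 for Csf1r). S100a8 was at 0 in Naive, Teff and Anergic. No other gene of the 12 was at 0 in Teff or in Anergic. The part of myeloid cells in the Ccr2 level was not tested.

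Ccr9, the receptor for the gut and thymic chemokine CCL25, followed Ccr2 in its order. Levels were 36.0, 33.1 and 37.2 CPM in Teff, 14.1, 14.7 and 15.3 in Treg, 7.64, 7.87 and 10.7 in Anergic and 4.00, 4.21 and 1.67 in Naive libraries. All 4 groups were apart. Anergic cells were 4.08-fold below Teff (log2 difference -2.03 ± 0.158 SE, adjusted p = 3.62e-10), 1.69-fold below Treg (log2 difference -0.76 ± 0.170 SE, adjusted p = 0.00116) and 2.57-fold above Naive (log2 difference 1.36 ± 0.223 SE, adjusted p = 1.98e-05). Over the 12 libraries the Pearson correlation of log2 CPM of Ccr9 and Ccr2 was 0.977, the highest of the 36 pairs of receptors; the points share the 4 groups. In GRCm38 the genes lie on the same strand of chromosome 9, Ccr9 at 123678439 to 123784330 and Ccr2 at 124101950 to 124113557, with Cxcr6 between them at 123806475 to 123811760. Other chemokine receptor genes, with too few counts to be tested, also lie between Ccr9 and Ccr2. Opposite-strand genes cover 19.04% of the annotated exon length of Ccr9 and same-strand neighbours 2.62%, so its counts are less certain.

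Ccr4, a receptor of skin-homing, Th2 and regulatory cells, was present in all groups but Naive, where it was low. It stood at 38.0, 57.4 and 48.1 CPM in Teff, 31.3, 45.4 and 46.8 in Treg, 16.1, 33.7 and 38.7 in Anergic and 0.689, 0.868 and 0.911 in Naive libraries. Library 1 was the lowest in each of Teff, Treg and Anergic, and these 3 groups overlapped. Anergic cells were 1.63-fold below Teff (log2 difference -0.70 ± 0.199 SE, adjusted p = 0.00979), a call lost without Anergic library 1 (log2 fold change -0.41, adjusted p = 0.0521) or Teff library 2 (log2 fold change -0.56, adjusted p = 0.0628), and with DESeq2 (adjusted p = 0.133; 2.72e-10 to 0.133 over all alternatives). Anergic against Treg did not pass (log2 difference -0.48 ± 0.200 SE, adjusted p = 0.073). It passed under 5 of 14 alternatives. Among them were the fits without Treg library 1 (adjusted p = 0.0205) and without Anergic library 3 (adjusted p = 0.0112). The others were scaling by total counts (adjusted p = 0.0108), no filter (adjusted p = 7.06e-05) and the replicate number as a block (adjusted p = 0.000476). Over all 14 the adjusted p ranged from 7.06e-05 to 0.428. Treg and Teff did not pass either (log2 difference -0.22 ± 0.191 SE, 95% interval -0.62 to 0.17, adjusted p = 0.434). Against Naive cells Ccr4 was 35.1-fold higher in Anergic, 57.1-fold in Teff and 48.9-fold in Treg.

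Ccr6, the receptor for CCL20 and a marker of Th17 cells and some regulatory cells, was highest in Treg. Treg libraries held 19.9, 20.9 and 21.8 CPM, Anergic 5.53, 9.63 and 8.52, and Teff 3.60, 10.04 and 6.12. All 3 Naive libraries held 0 counts, where 3 counts, the limit a count of 0 allows, would be 0.414, 0.372 and 0.455 CPM. Treg exceeded Anergic 2.64-fold (log2 difference -1.40 ± 0.233 SE for Anergic against Treg, adjusted p = 5.87e-05) and Teff 3.18-fold (log2 difference 1.67 ± 0.239 SE, adjusted p = 9.17e-06). Anergic and Teff overlapped and did not pass (log2 difference 0.27 ± 0.265 SE, 95% interval -0.29 to 0.82, adjusted p = 0.517). Against a floor of 3 counts over the 3 Naive libraries, Ccr6 was at least 152-fold higher in Treg, 57.5-fold in Anergic and 47.6-fold in Teff (adjusted p = 3.52e-11, 8.16e-09 and 4.19e-08 by edgeR). Ccr6 passed the filter only through these groups, so a difference from Naive was fixed in advance and the p-values lend it no support.

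**Figure D2:**
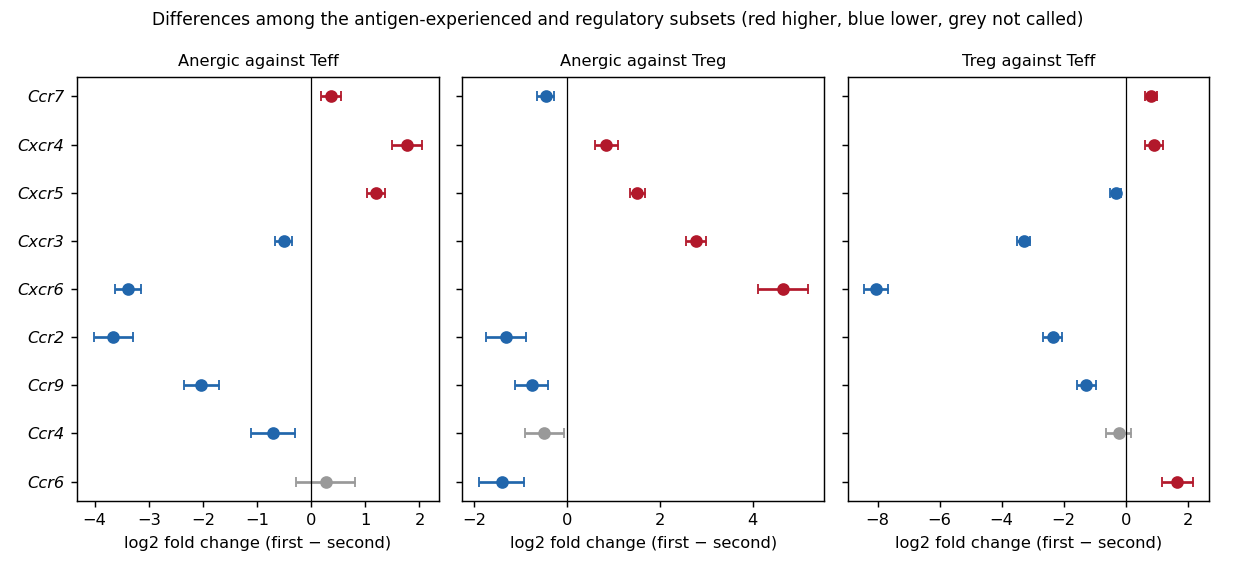
Log2 fold changes of the 9 receptors (x axis, first group minus second) with 95% intervals in the 3 comparisons that leave out Naive cells; each panel has its own scale. Red points were called higher, blue lower, and grey points did not pass; Cxcr6 lies at -3.39, 4.65 and -8.04 from left to right.

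The sequence before a RefSeq start site is shown for Ccr4 and Ccr6, the members whose windows matched a searched motif. It is also shown for Cxcr6, the leading receptor of Teff cells. RefSeq windows from 250 bases before to 50 after a start were at hand for 7 of the 9 genes, 8 windows in all. They were searched on both strands for the AP-1 motif TGANTCA, which BATF and its partners bind, the T-box motif TCACACC and the STAT motif TTCNNNGAA. Capitals mark the matches within the 250 bases before the start, written 5′ to 3′ on the gene's strand.
Ccr4 (GRCm38.p6, chr9:114496545-114496794, - strand): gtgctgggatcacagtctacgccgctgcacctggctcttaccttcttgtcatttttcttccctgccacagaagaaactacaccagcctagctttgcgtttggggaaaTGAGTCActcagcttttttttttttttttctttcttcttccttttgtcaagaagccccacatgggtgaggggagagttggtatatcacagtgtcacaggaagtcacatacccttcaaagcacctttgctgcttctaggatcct
Ccr6 (GRCm38.p6, chr17:8235793-8236042, + strand): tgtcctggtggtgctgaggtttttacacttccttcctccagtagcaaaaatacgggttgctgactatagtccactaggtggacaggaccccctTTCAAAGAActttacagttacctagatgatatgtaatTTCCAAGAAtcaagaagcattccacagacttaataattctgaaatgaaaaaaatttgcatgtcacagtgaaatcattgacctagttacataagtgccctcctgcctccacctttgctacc
Cxcr6 (GRCm38.p6, chr9:123806227-123806476, + strand): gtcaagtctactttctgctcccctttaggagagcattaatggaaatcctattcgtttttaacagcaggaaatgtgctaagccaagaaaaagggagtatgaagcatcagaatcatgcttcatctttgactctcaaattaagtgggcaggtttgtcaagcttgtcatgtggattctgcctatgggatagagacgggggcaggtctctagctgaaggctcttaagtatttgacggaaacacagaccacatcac
The AP-1 match begins 143 bases before the RefSeq start of Ccr4. In GENCODE this gene has 3 transcripts and reaches 114504916, upstream of the window, so the match lies within the annotated gene. This motif was in 1 of the 8 windows, beside 7.81% of 32851 mouse promoter windows of that length. The STAT matches begin 157 and 120 bases before the more upstream Ccr6 start, and 1 of the 8 windows held it, beside 8.3% of all. The T-box motif was in 0 of the 8 windows and in 3.98% of all. No searched letters stood out in capitals for Cxcr6, which says only that they are not in this window.

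Levels of different receptors were compared per exon length, as RPKM (scaled CPM per kilobase of exons). Ccr7 led in both Naive and Treg cells. It made up 84.7 ± 0.933% of the summed RPKM of the 9 in Naive libraries and 44.4 ± 2.42% in Treg (SD, n = 3). Cxcr6 led in Teff with 40.4 ± 1.0%, followed by Cxcr3 with 27 ± 1.88%. In Anergic cells Cxcr3 led with 27.4 ± 0.881%, and Ccr7 (20.5 ± 1.82%), Cxcr5 (20.5 ± 0.682%) and Cxcr4 (18.4 ± 4.16%) lay within their spread of each other (SD, n = 3). With the longest transcript as length Cxcr5 ranked above Ccr7 in Anergic cells, at 45.6 against 39.0 RPKM. Summed over the 9 receptors, Teff libraries held 275 ± 11.7 RPKM, Anergic 190.4 ± 2.74, Naive 137 ± 2 and Treg 120.1 ± 4.35 (SD, n = 3).

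**Figure D3:**
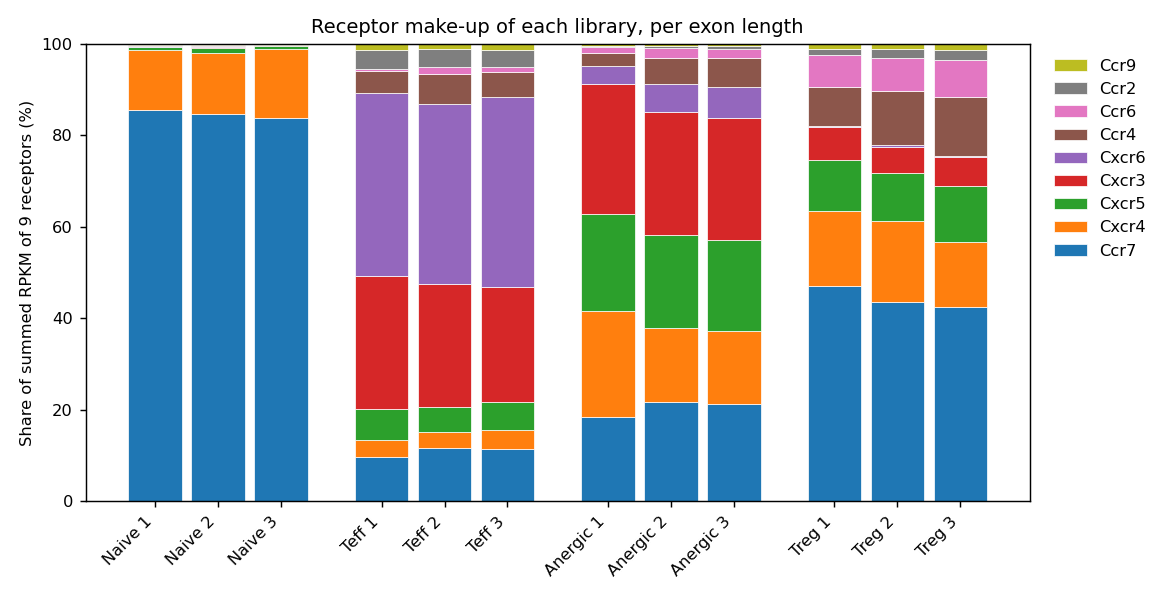
Share of each receptor (colour) in the summed RPKM of the 9 (y axis, percent) in each library (x axis). Ccr7 fills most of the Naive bars and 44.4% of the Treg bars on average, Cxcr6 and Cxcr3 lead in Teff, and Anergic bars are split among Cxcr3, Ccr7, Cxcr5 and Cxcr4.

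Ratios of 2 receptors in the same library do not depend on library scaling. The log2 ratio of Cxcr5 to Ccr7 counts was 0.96, 0.65 and 0.65 in Anergic libraries, 0.24, -0.31 and -0.15 in Teff, -1.34, -1.30 and -1.03 in Treg and -6.09, -5.43 and -6.24 in Naive. Every Anergic library lay above every library of the other groups. The log2 ratio of Cxcr6 to Cxcr3 was 0.63, 0.72 and 0.87 in Teff, -2.65, -1.99 and -1.85 in Anergic and -4.73, -3.04 and -4.28 in Treg. Between Teff and Anergic cells Cxcr6 was 10.5-fold and Cxcr3 1.42-fold lower in the latter. These ratios are per count, not per length, and were not tested.

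**Figure D4:**
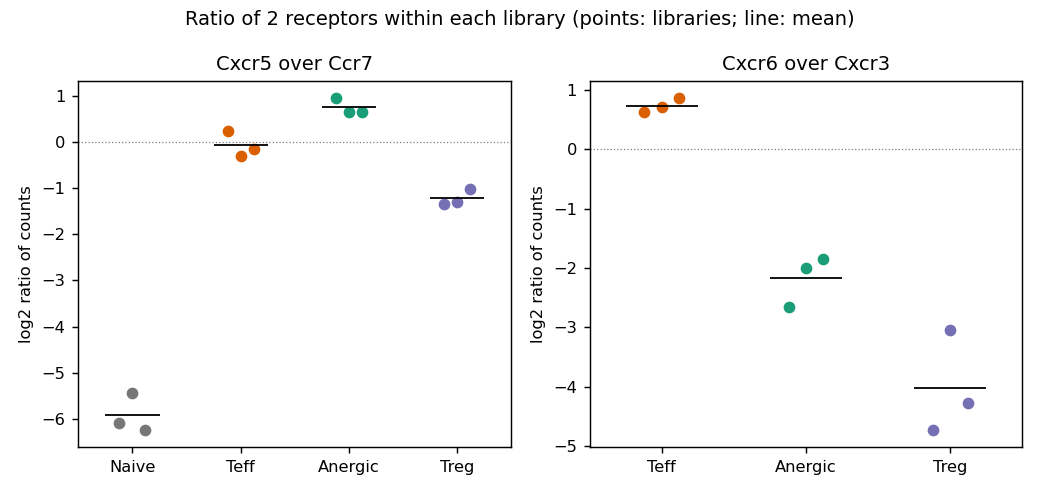
Log2 ratio of counts of 2 receptors (y axis) within each library, by group (x axis), with points for libraries and a line at the mean. Cxcr5 over Ccr7 is highest in Anergic libraries (0.65 to 0.96), and Cxcr6 over Cxcr3 is above 0 in the 3 Teff libraries and below 0 in Anergic and Treg; Naive cells are left out on the right because they hold few counts of both.

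Of 15 other chemokine receptors 4 had enough counts to be tested. Ccr8, a Treg and Th2 receptor, was at 11.8 ± 1.60 CPM in Treg and 4.47 ± 1.67 in Anergic (SD, n = 3). In Anergic against Teff 2 of the 4 were lower, among them Ccr10 (86 counts in all libraries), and in Anergic against Treg Ccr8 was lower (log2 fold change -1.41, adjusted p = 0.000337). Against Naive cells 3 were higher in Anergic, 4 in Teff and 3 in Treg, and in Treg against Teff 1 was higher and 2 lower. Over all tested genes 26.6% were called in Anergic against Teff, 31% in Anergic against Treg and 29.1% in Treg against Teff. Against Naive the shares were 46.2% in Anergic, 34.9% in Teff and 32.8% in Treg. Of 15 ligands of the 9 receptors 2 were tested. Cxcl10, a ligand of CXCR3, was at 11.7 ± 1.76 CPM in Anergic, 3.72 ± 0.484 in Teff, 2.49 ± 1.17 in Treg and 0.602 ± 0.139 in Naive (SD, n = 3), 1.65 higher on the log2 scale in Anergic than in Teff (adjusted p = 1.93e-05).

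Genes that carry or damp the receptor signal changed in both directions. Among 31 tested signalling genes, Anergic cells had 5 above and 13 below Teff, or 4 and 14 when scaled by total counts, and 8 higher and 11 lower than in Treg, or 3 and 15 when scaled by total counts. Against Naive 12 were higher and 10 lower in Anergic, or 8 and 11 when scaled by total counts, 12 and 9 in Teff, or 13 and 5, and 11 and 6 in Treg, or 13 and 4. In Treg against Teff 6 were higher and 9 lower. The share of all tested genes called ran from 26.6% in Anergic against Teff to 46.2% in Anergic against Naive. The median log2 fold change of the list was -0.148 for Anergic against Teff. Rgs16 and Rgs10, which encode proteins that shut off Gα subunits, were higher in Anergic than in Teff by 3.08 (adjusted p = 5.78e-11) and 0.74 (adjusted p = 1.04e-07) on the log2 scale. Lower were Pik3r5, a subunit of PI3Kγ (log2 fold change -1.43, adjusted p = 1.35e-11), and Dock2, the Rac activator of migrating lymphocytes (log2 fold change -0.50, adjusted p = 4.66e-07). Rgs1 rose in all 3 groups over Naive, from 13.4 ± 2.91 CPM to 93.4 ± 1.80 in Teff, 84.2 ± 2.97 in Anergic and 203 ± 14.2 in Treg (SD, n = 3).

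Other receptors that set where T cells go were listed as well, and among 17 tested, Anergic cells had 4 above and 7 below Teff, or 1 and 8 when scaled by total counts. In Anergic against Treg 7 were higher and 8 lower. Against Naive 12 were higher and 5 lower in Anergic, 11 and 3 in Teff and 10 and 3 in Treg. In Treg against Teff 4 were higher and 9 lower. The share of all tested genes called ran from 26.6% in Anergic against Teff to 46.2% in Anergic against Naive. Selplg, which encodes the P-selectin ligand, was lower in Anergic than in Teff (log2 fold change -1.15, adjusted p = 2.37e-11), and Gpr183, an oxysterol receptor of follicle borders, was higher (log2 fold change 0.48, adjusted p = 4.73e-05).

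Among 15 tested transcription factors of helper subsets, Anergic cells had 7 above and 7 below Teff, or 6 and 7 when scaled by total counts, and 10 higher and 4 lower than in Treg, or 8 and 5. Against Naive 12 were higher and 3 lower in Anergic, 11 and 2 in Teff and 10 and 3 in Treg (11 and 2 when scaled by total counts). In Treg against Teff 4 were higher and 5 lower. The share of all tested genes called ran from 26.6% in Anergic against Teff to 46.2% in Anergic against Naive. Tbx21, which encodes the Th1 factor T-bet, was at 117 ± 1.89 CPM in Teff, 32.4 ± 5.45 in Anergic, 3.60 ± 0.978 in Treg and 0.634 ± 0.847 in Naive (SD, n = 3). Klf2 was at 420.3 ± 30.6 CPM in Naive, 332 ± 17.5 in Treg, 324 ± 23.4 in Teff and 178 ± 2.79 in Anergic (SD, n = 3). Bcl6, the follicular helper factor, was chosen after its values were seen, and stood at 73.3 ± 5.70 CPM in Anergic and 20.3 ± 1.24 to 24.4 ± 1.75 in the other groups (SD, n = 3).

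The genes whose log2 CPM was most like each receptor's over the 12 libraries were sought among tested genes averaging 10 CPM or more. For Cxcr5 they were Maf (Pearson r = 0.995), Casp4 (0.994) and Chst2 (0.993), and for Cxcr3 Anxa2 (0.996), Prr13 (0.99) and Asb2 (0.989). For Cxcr6 they were Sorl1 (0.988), Sntb2 (0.987) and Gdf11 (0.983), and for Ccr4 Ptger4 (0.987), Gimap7 (0.985) and Uhrf1 (0.985). Ccr6 was most like Rgs1 (0.979), Map3k8 (0.979) and Irf8 (0.978), and Ccr7 most like Rpl10 (0.968), Bcl11b (0.968) and Tpt1 (0.966). For Ccr2 they were Capn2 (0.977), Ccr9 (0.977) and Lgals1 (0.972), for Ccr9 Ccr2 (0.977), Serpinb6b (0.966) and Inpp5d (0.952), and for Cxcr4 Ptgfrn (0.966), Ext1 (0.954) and Aff3 (0.954). The correlations describe 12 libraries that share 4 groups and carry no test.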

How the data were processed

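RNA was purified on QIAGEN RNeasy columns and made into stranded Takara SMARTer Pico libraries, per the labels' protocols. The authors deposited unnormalised gene counts. Their pipeline held Trimmomatic, HISAT2, SAMtools, featureCounts and edgeR, by the series design text, and used mm10 (GRCm38), per the submitters' processing notes. The annotation and strand setting were not given in the sources used here. GENCODE M21 gave positions and exon lengths, and RefSeq (GRCm38.p6) gave promoter windows.

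Tests here used edgeR 4.0.16 under R 4.3.3 (filterByExpr, TMM, glmQLFit and glmQLFTest, two-sided, Benjamini-Hochberg over all 13393 tested genes, called under 0.05) in a model of group means over 12 libraries. Standard errors are the fold change over the square root of F. Floors of 3 counts and exact 95% intervals cover counting error only. Alternatives were DESeq2 1.42.0, limma 3.58.1 voom, other scalings and filters, fits of the compared groups, a replicate block and each library left out. No library looked like a copy of another of its group (chi-square over degrees of freedom 2.20 to 21.5). The code was tested on simulated data. All 9 receptors are named, from each context list up to 2 called higher and 2 lower per comparison with the smallest adjusted p, and the 3 genes most like each receptor, leaving out predicted, RIKEN, pseudogene and receptor segment names. Cd3e is named as a fixed cell type marker, and Ms4a1, Ncr1 and S100a8 fall outside the rule and were chosen after their values were seen. Some genes of the context lists are not reported here by name. Members and lists were chosen with earlier results of these data known.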

Additional observations from a re-analysis of the deposited data

How the results depend on the processing

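Of the 54 receptor results (9 genes in 6 comparisons), 50 kept their direction and their side of the threshold under every alternative that gave a value. Cxcr6 in Treg against Naive had none in the fit of only the compared groups, where it was not among the tested genes. The exceptions were Ccr4 in Anergic against Teff and against Treg, given with the receptor, and 2 results that were not called and changed sign. With each library left out, Ccr6 in Anergic against Teff ran from -0.0427 (without Teff replicate 1) to 0.701 on the log2 scale. Cxcr4 in Treg against Naive ran from -0.0601 (without Treg replicate 2) to 0.147, and was -0.00125 without Naive replicate 1. The cause of these shifts was not tested. With each library left out, 7 to 8 receptors were called in Anergic against Teff, 8 to 9 in Anergic against Treg, and 9, 9, 7 and 8 in Anergic, Teff and Treg against Naive and Treg against Teff. With the replicate number as a block, 8, 9, 9, 9, 7 and 8 were called in the same order. The one change was Ccr4 in Anergic against Treg (log2 fold change -0.51, adjusted p = 0.000476). The labels do not say that same-numbered libraries belong together, though the numbered headers of the count columns run through the groups replicate by replicate. Of 18 same-numbered pairs, 4 had deviations correlated above 0.1 (-0.0485 to 0.184), and 10 of 12 libraries correlated best with their own number. Whether the numbers mark pairs or a batch is not known. The depth leaves Ccr2, Ccr6 and Cxcr3 in Naive cells at 0 to 3 counts, where the size of a fold is poorly known.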
